A study of Rattus norvegicus with 12 samples.

Results

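Collagen genes were followed across the cell classes of healthy rat liver. The members were all genes of the gene table whose symbol has the form Col, a number, a and a number, which gave 42 of 32883 genes. The rule reads the symbol alone. Col1a2, Col6a3 and Col21a1 have no row under those symbols and were not analysed here.

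The study profiled livers of healthy male rats of 2 inbred strains, Dark Agouti (DA) and Lewis (LEW), to map the cells of the organ. Total liver homogenate (TLH) cells came from 2 DA and 2 LEW rats after collagenase digestion, and nuclei came from snap-frozen tissue of another 2 DA and 2 LEW rats. A further DA and a further LEW library held immune-enriched cells, which were washed again and depleted of red cells, and 2 sections of Wistar livers were profiled on Visium slides, whose spots each cover several cells. Every value is a count of unique molecular identifiers (UMIs), that is, of captured RNA molecules, given per 1000000 UMIs of the cells summed (CPM). Counting at the 3′ end does not scale with the length of the RNA. No rat was treated, and the design text gives an age of 8 to 10 weeks, whereas the names of the deposited files give 10 weeks for the DA TLH rats and 13 weeks for the LEW TLH rats. The methods of the study give yet another age and call the strains age matched. Whether the strains differed in age in TLH cells is therefore not settled by these sources, and if they did, strain and age cannot be told apart there. TLH cells and nuclei also differ in rat, tissue handling and chemistry (10x 3′ v2 and v3), which cannot be told apart either.

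Libraries of cells and nuclei held 8039397 to 92484173 UMIs in all deposited barcodes, and 3844 to 7112 TLH cells, 2205 to 5262 nuclei and 1163 and 2677 immune-enriched cells passed the quality limits, with a median of 1541.5 to 2545.5 UMIs in TLH cells and nuclei. Cell classes were gated on marker lists that hold no collagen gene: a non-hepatocyte had at least 3 markers of its list and at most 1 of each other non-hepatocyte list. Hepatocyte markers could not be used against it, since gated stellate, endothelial and Kupffer cells of the TLH and nuclei libraries carried a median of 14 to 19 of the hepatocyte markers. The gates held 162 to 379 stellate cells and 42 to 98 stellate nuclei a rat, 90 to 486 endothelial cells and 96 to 125 endothelial nuclei, 409 to 648 Kupffer cells and 51 to 77 Kupffer nuclei, and 1246 to 2949 hepatocytes and 1748 to 4279 hepatocyte nuclei. The nuclei libraries shared 8 to 24 cell barcodes pairwise of 4458 to 10552. The TLH and immune-enriched files carry no barcode sequences, so sharing was not checked there.

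Collagens are trimers of alpha chains, each chain the product of its own gene. Fibrillar chains (types I, III and V) build the cables of the interstitial matrix, type IV chains build the sheet of basement membranes, type VI forms beaded filaments, and types XIII and XVIII are a membrane-bound collagen and a basement membrane proteoglycan whose tail can be released as endostatin. In liver, stellate cells, the vitamin A storing pericytes of the sinusoid, are known as a main source of fibrillar collagen, and the sinusoidal endothelium they wrap lies on a thin matrix without a continuous basement membrane.

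Few of the 42 members made up the collagen RNA. Over all cells that passed the quality limits, Col18a1 gave 14466 of 24076 collagen UMIs in TLH cells and 20528 of 25578 in nuclei. Col3a1, the only chain of type III collagen, gave 6002 and 2440. The 10 fibrillar members held 6377 and 2791 UMIs, the 6 chains of type IV 2113 and 1371, the 5 type VI members 518 and 432, and the 9 fibril-associated members 211 and 224. A mean of at least 20 CPM in some gated class was reached by 14 members, and Col2a1 and Col9a1, known from cartilage, and the transmembrane collagen Col23a1 had no UMI in TLH cells, nuclei or immune-enriched cells.

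Promoter sequence is shown for the members that set the endothelial and hepatocyte pattern, since 4 of them lie in head-to-head pairs. Sequences are those before the RefSeq gene starts on build GRCr8, printed 5′ to 3′ on the strand given, and 33 of the 42 members had an entry. Capitals mark matches on either strand to 1 of 3 short motifs, namely CCAAT, the GC box (letters GGGCGG, or their reverse complement) and the TATA box (letters TATAAA). Col4a1 and Col4a2, the common type IV chains, start 76 bases apart on opposite strands, and the whole stretch between them (chr16:84885521-84885596, plus strand) is shown. Col4a3 and Col4a4, chains of the specialised type IV network, start 412 bases apart, and their windows of 250 bases overlap (chr9:91323740-91323989, plus strand, and chr9:91323578-91323827, minus strand). Col13a1 lies at chr20:30466801-30467050 (minus strand) and Col18a1 at chr20:11473395-11473644 (plus strand).
Col4a1 and Col4a2: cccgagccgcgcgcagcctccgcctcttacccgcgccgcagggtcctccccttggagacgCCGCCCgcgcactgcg
Col4a3: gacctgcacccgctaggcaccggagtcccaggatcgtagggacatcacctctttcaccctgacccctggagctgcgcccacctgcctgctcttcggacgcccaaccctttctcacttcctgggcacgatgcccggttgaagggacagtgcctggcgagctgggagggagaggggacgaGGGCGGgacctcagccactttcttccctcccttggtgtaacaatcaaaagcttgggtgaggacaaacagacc
Col4a4: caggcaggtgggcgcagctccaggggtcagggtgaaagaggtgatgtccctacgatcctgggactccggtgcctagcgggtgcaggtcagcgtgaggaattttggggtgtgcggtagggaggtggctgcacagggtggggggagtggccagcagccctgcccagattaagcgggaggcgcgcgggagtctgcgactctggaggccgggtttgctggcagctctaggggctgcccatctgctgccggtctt
Col13a1: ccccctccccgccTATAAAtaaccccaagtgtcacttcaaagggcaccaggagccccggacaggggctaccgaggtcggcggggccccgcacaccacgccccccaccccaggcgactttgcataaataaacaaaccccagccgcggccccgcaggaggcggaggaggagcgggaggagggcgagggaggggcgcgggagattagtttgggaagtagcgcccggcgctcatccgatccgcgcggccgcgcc
Col18a1: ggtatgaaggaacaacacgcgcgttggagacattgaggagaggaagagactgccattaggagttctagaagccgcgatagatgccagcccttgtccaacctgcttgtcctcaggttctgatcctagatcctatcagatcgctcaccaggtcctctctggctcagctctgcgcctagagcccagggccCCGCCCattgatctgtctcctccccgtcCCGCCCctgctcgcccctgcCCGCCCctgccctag
Over 33469 RefSeq rat promoters, a window of 250 bases held CCAAT in 34.0%, the GC box in 30.5% and the TATA box in 12.9%, and a window of 76 bases held the GC box in 18.1%. A match describes these letters only.

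**Figure D1:**
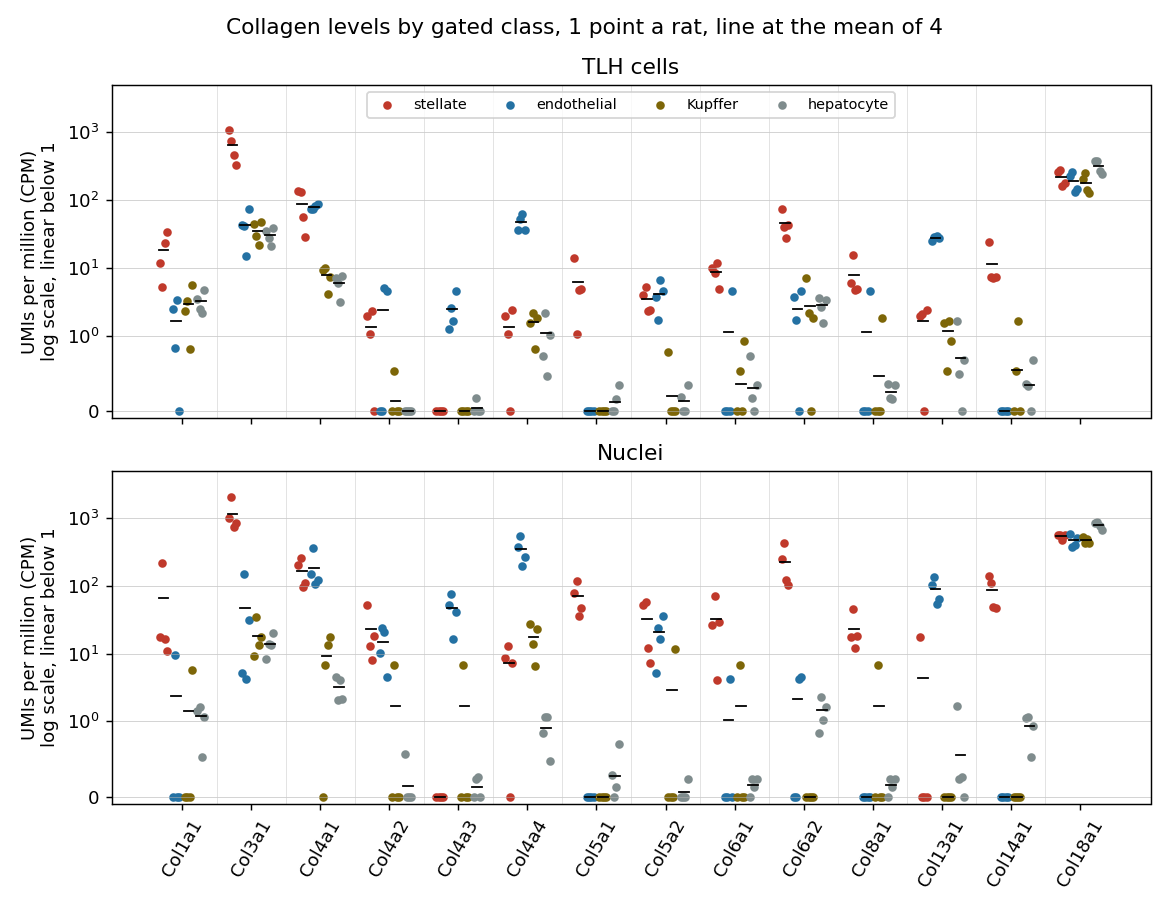
Level in CPM (logarithmic above 1 and linear below) of the 14 members that reached 20 CPM, in gated stellate, endothelial, Kupffer and hepatocyte classes of TLH cells (top) and nuclei (bottom); each point is 1 rat and each line the mean of 4 rats. Col3a1 and Col6a2 stand highest in the stellate class and Col4a4 and Col13a1 in the endothelial class, Col4a1 stands high in both, and Col18a1 is spread over all classes.

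In stellate-gated cells Col3a1 led. Its level was 1084 and 755 CPM in the DA and 465 and 325 CPM in the LEW TLH rats, and 1005 and 2033 CPM in the DA and 740 and 854 CPM in the LEW nuclei. No endothelial, Kupffer or hepatocyte value of any rat reached the lowest stellate value, the highest being 148 CPM in endothelial nuclei of DA2. Against endothelial cells Col3a1 was higher by 4.31 ± 0.15 on the log2 scale (SE, 4 rats, edgeR adjusted p = 1.72e-53) in TLH cells and by 4.87 ± 0.24 (edgeR adjusted p = 1.75e-70) in nuclei. In the latter comparison Col3a1 was tested owing to its level in stellate nuclei (846 against 40 UMIs), so that call is no independent support. Against hepatocytes the differences were 4.33 ± 0.37 (edgeR adjusted p = 0.0107) and 5.99 ± 0.21 (edgeR adjusted p = 1.43e-179). In TLH cells the call against hepatocytes was lost without DA1, DA2 or LEW1, at log2 differences of 4.14 to 4.65. At least 1 Col3a1 UMI was found in 48.0% ± 19.1 (SD, n = 4) of stellate-gated TLH cells and 64.1% ± 13.4 of nuclei. Lymphocyte-gated TLH cells, which should lack it, had 6.77% ± 2.78 and hepatocyte nuclei 2.51% ± 1.04, at median depths of 1672.5 to 2532 and 1446 to 1998 UMIs against 1690 to 2516.5 in stellate cells and 1333 to 1880 in stellate nuclei. With each cell thinned to 1000 UMIs the shares were 33.7% ± 18.1 in stellate cells and 2.73% ± 1.07 in lymphocytes. Col3a1 made 59.1% ± 6.6 of the collagen UMIs of stellate TLH cells and 45.8% ± 4.3 of those of stellate nuclei.

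Other chains followed the stellate class. Col6a2, a chain of the type VI filaments, stood at 73.0, 39.6, 28 and 43.3 CPM in stellate TLH cells of DA1, DA2, LEW1 and LEW2 and at 245, 425, 121 and 103 CPM in nuclei. Every stellate value lay above every endothelial, Kupffer and hepatocyte value, of which the highest was 6.99 CPM. In TLH cells 105 UMIs in the stellate class stood against 6 in the endothelial class. In nuclei, 152 UMIs in the stellate class stood against 2 in the endothelial class, a ratio of 83.2 (95% counting interval 22.6 to 693), and against no UMI in the Kupffer class, so that it was at least 37.3-fold higher at a floor of 3 counts over the 4 rats. Col14a1, a fibril-associated chain, was at 23.7, 7.29, 7.01 and 7.22 CPM in stellate TLH cells and at 140, 109, 48.5 and 47.8 CPM in stellate nuclei. With no Col14a1 UMI in endothelial nuclei, it was at least 21.2-fold higher in stellate nuclei. The type V chain Col5a1 was at 78.7, 116, 36.4 and 47.8 CPM in stellate nuclei, against 0 to 0.702 CPM in hepatocyte nuclei (49 against 5 UMIs), but at 1.04 to 13.8 CPM in stellate TLH cells, 12 UMIs in all.

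The remaining stellate chains rest on few UMIs. In stellate nuclei Col5a2 had 20 UMIs against 1 in hepatocyte nuclei (ratio 502, 80.3 to 20811), Col4a2 had 15 against 2 (ratio 188, 43.8 to 1697) and the short-chain collagen Col8a1 had 17 against 3 (ratio 142, 41.1 to 758). Col5a2 was not restricted to that class, since endothelial nuclei held it at 5.18, 23.9, 16.6 and 36.2 CPM and stellate nuclei at 52.5, 57.9, 12.1 and 7.36 CPM, so that the classes overlapped. Col6a1 was at 26.2, 70.8, 4.04 and 29.4 CPM in stellate nuclei. Col1a1, a chain of type I collagen and the classical readout of scarring, was low in these healthy livers, at 11.8, 5.20, 23.4 and 33.7 CPM in stellate TLH cells and at 17.5, 219, 16.2 and 11 CPM in stellate nuclei. Its 34 UMIs in stellate nuclei of DA2 lay in 6 nuclei, of which 1 held 18. Hepatocytes held 62 Col1a1 UMIs in TLH cells and 21 in nuclei, against 35 and 43 in the far smaller stellate classes.

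Endothelial cells carried another set, of type IV and type XIII. Col4a4 was at 35.9, 53.0, 63.1 and 36.6 CPM in endothelial TLH cells of DA1, DA2, LEW1 and LEW2, and at 378, 551, 195 and 267 CPM in endothelial nuclei. No stellate, Kupffer or hepatocyte value exceeded 27.4 CPM, and the groups were apart in each assay. Stellate-gated TLH cells held 3 Col4a4 UMIs against 138 in endothelial cells, a ratio of 37.8 (12.7 to 185), and stellate nuclei held 5 against 294 in endothelial nuclei. Endothelial cells held a Col4a4 UMI in 9.83% ± 3.72 of TLH cells and 41.2% ± 11.6 of nuclei, against 0.455% ± 0.909 of lymphocytes and 0.169% ± 0.040 of hepatocyte nuclei. Its head-to-head partner Col4a3, printed beside it above, was at 51.8, 76.6, 16.6 and 40.7 CPM in endothelial nuclei and absent from the UMIs of stellate nuclei, with 39 UMIs against 3 in hepatocyte nuclei (ratio 298, 94.8 to 1508). In endothelial TLH cells Col4a3 gave 6 UMIs, at 1.24 to 4.57 CPM. Col13a1 was at 24.8, 28.6, 29.9 and 27.4 CPM in endothelial TLH cells and at 104, 134, 54.0 and 63.3 CPM in endothelial nuclei. The larger hepatocyte classes held 14 Col13a1 UMIs in TLH cells and 9 in nuclei, against 78 and 75 in the endothelial classes. No p is given for members that were nearly without UMIs in the lower class, since they entered the test through the higher class alone.

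Col4a1 was shared between the stellate and endothelial classes. It was at 136, 133, 56.0 and 28.9 CPM in stellate TLH cells and at 73.1, 74.1, 83.1 and 86.9 CPM in endothelial TLH cells, so that the values of the DA rats were the upper ones in the stellate class and those of the LEW rats in the endothelial class. In nuclei the values were 201, 257, 97.0 and 110 CPM against 150, 364, 108 and 122 CPM. Stellate minus endothelial was 0.46 ± 0.18 on the log2 scale in TLH cells (edgeR adjusted p = 0.0615) and -0.06 ± 0.22 in nuclei (edgeR adjusted p = 0.896), neither past the threshold. Both classes stood above hepatocytes, stellate by 3.91 ± 0.25 and 5.27 ± 0.28 and endothelial by 3.56 ± 0.20 and 5.32 ± 0.28 on the log2 scale in TLH cells and nuclei, all past the threshold. Col4a2, which builds the same trimer, was counted far less often, with 20 UMIs against 1517 of Col4a1 in TLH cells and 50 against 615 in nuclei.

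Levels in the stellate and endothelial classes depend on how many markers the gate asks for. From 2 to 5 markers, the mean over 4 rats went from 18.7 to 118 CPM for Col6a2 in stellate TLH cells and from 88.4 to 414 CPM in stellate nuclei, where Col14a1 went from 37.0 to 169 CPM, Col5a1 from 27.5 to 143 CPM and Col4a1 from 69.3 to 327 CPM. In endothelial nuclei Col4a4 went from 232 to 411 CPM and Col13a1 from 59.0 to 104 CPM.

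The immune-enriched libraries, 1 of each strain and so without a test, held the same endothelial chains. Endothelial-gated cells had Col4a1 at 285 and 309 CPM, Col4a4 at 213 and 223 CPM, Col13a1 at 119 and 106 CPM and Col4a3 at 23.4 and 13 CPM in the DA and LEW library. Stellate gates held only 4 and 17 cells there and are not described. Col3a1 had few UMIs in the non-stellate classes of these libraries, at 11.7 and 4.34 CPM (5 and 3 UMIs) in endothelial cells, 0 and 1.22 CPM in Kupffer cells, 0.743 and 1.29 CPM in hepatocytes and 0 in lymphocytes. In TLH cells the corresponding ranges were 15 to 73.2, 21.5 to 47.0, 20.9 to 38.4 and 10.7 to 43.4 CPM. The chemistries and washing differ between these libraries, and their part in the result was not tested.

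Col18a1 behaved unlike the others. It was highest in hepatocyte-gated cells, at 383, 372, 265 and 240 CPM in DA1, DA2, LEW1 and LEW2 TLH rats and at 852, 881, 756 and 670 CPM in nuclei, and made 86.2% ± 4.4 and 95.8% ± 0.9 of hepatocyte collagen UMIs. Stellate cells had 259, 276, 163 and 176 CPM, lower than hepatocytes in each rat (log2 difference -0.64 ± 0.09, edgeR adjusted p = 2.55e-08). In nuclei the difference was -0.83 ± 0.17 (edgeR adjusted p = 3.49e-05). Both calls were lost without the rat as a block. Endothelial cells were lower than hepatocytes too (log2 difference -0.94 ± 0.10, edgeR adjusted p = 1.01e-09, in TLH cells and -1.14 ± 0.23, edgeR adjusted p = 6.21e-06, in nuclei). Lymphocyte-gated TLH cells, which served as background, held Col18a1 at 205, 205, 75.1 and 130 CPM and in 30.1% ± 10.8 of cells, against 37.8% ± 6.3 of stellate cells and 31.8% ± 9.5 of endothelial cells. The stellate level lay above the lymphocyte level in each of the 4 rats, and the endothelial level likewise. The Kupffer level (204, 249, 139 and 128 CPM) lay above the lymphocyte level in DA2 and LEW1 but not in DA1 and LEW2. The lymphocyte level rests on 33 and 29 UMIs in DA1 and DA2 and on 14 UMIs in each of LEW1 and LEW2. The background was not separated from expression by the stellate and endothelial cells themselves.

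The Col18a1 count was also set against hepatocyte RNA within a library. Per 1000 UMIs of the hepatocyte marker list it was 2.11 in stellate, 1.91 in endothelial, 1.86 in Kupffer, 2.06 in lymphocyte and 2.80 in hepatocyte cells of the TLH library of DA1. The hepatocyte ratio was the highest of these classes in each TLH library, at 2.80, 2.45, 1.78 and 1.57 in DA1, DA2, LEW1 and LEW2, and the lymphocyte ratio of LEW1 was 0.789. In stellate, endothelial, Kupffer and hepatocyte nuclei the ratios were 6.85, 7.17, 9.03 and 7.41 in DA1, 9.61, 7.39, 6.91 and 8.03 in DA2, 3.99, 4.68, 4.22 and 4.36 in LEW1 and 6.07, 6.87, 6.36 and 6.61 in LEW2. The hepatocyte ratio was the highest in none of the 4 nuclei libraries. The hepatocyte list itself made 10.7% to 13.2% of the UMIs of Kupffer-gated TLH cells and 13.7% to 15.3% of those of hepatocytes. In the immune-enriched DA library, where that list made 0.302% of the UMIs of Kupffer cells, Col18a1 stood at 2.54 CPM there (1 UMI) and 8.68 CPM in lymphocytes (10 UMIs), against 370 CPM in hepatocytes and 187 CPM in endothelial cells. In the LEW library, where the list made 9.80%, Kupffer cells had 181 CPM. Of the UMIs of endothelial cells the list made 5.45% in the DA and 7.50% in the LEW library. Per 1000 UMIs of the list, Col18a1 was 3.43 in endothelial cells, 0.840 in Kupffer cells, 4.86 in lymphocytes and 3.34 in hepatocytes of the DA library. In the LEW library these ratios were 1.81, 1.85, 1.54 and 1.66.

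Counts of members past the threshold have to be read with the filter on low counts in mind, since a member that passed the filter only through its high class had to differ. Of the 42 members, 6 could be tested between stellate and endothelial TLH cells, with 2 higher and 2 lower, where 7.19% of all genes tested were called higher and 9.09% lower. Against hepatocytes 5 of 6 were higher and 1 lower (5.9% and 7.03% of all genes), and against Kupffer cells 4 of 4 were higher and none lower (8.27% and 10.3%). Of the latter, the Col18a1 call was lost in 5 of 13 alternatives. Between endothelial cells and hepatocytes 3 of 5 were higher and 1 lower (15.9% and 14.5%). In nuclei 3 of 7 were higher and 2 lower in stellate than in endothelial nuclei (9.19% and 11.8%), 9 of 11 higher and 1 lower than in hepatocyte nuclei (7.54% and 6.99%), and 3 of 4 higher and none lower than in Kupffer nuclei (5.45% and 8.8%). Endothelial against hepatocyte nuclei gave 5 of 7 higher and 1 lower (15.2% and 15%). Of those higher, Col3a1 changed direction without DA2, and its call was lost without LEW2, without the rat block or with DESeq2.

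Genes that fold, cut, bind or break down collagen were followed as a list of 64 genes with a row. Between stellate and hepatocyte TLH cells 20 of them could be tested, of which 8 were higher and 2 lower in stellate cells (5.9% and 7.03% of all genes), and in nuclei 28 could be tested, with 11 higher and 4 lower (7.54% and 6.99%). Bgn, the proteoglycan biglycan that binds collagen fibrils, was at 582 ± 351 CPM (SD, n = 4) in stellate TLH cells against 42.9 CPM in endothelial cells, 41.5 CPM in Kupffer cells and a like level in hepatocytes (against the last, log2 difference 3.73 ± 0.37, edgeR adjusted p = 0.0153), and at 651 ± 178 CPM in stellate nuclei (5.39 ± 0.20). It was higher than in endothelial cells as well, by 3.82 ± 0.14 and 4.55 ± 0.26. Sparc, a matrix protein that binds collagen, was at 389 ± 199 CPM in stellate and 354 CPM in endothelial TLH cells, and at 408 ± 179 and 416 CPM in nuclei, with no difference past the threshold between these classes and 3.38 ± 0.12 and 4.79 ± 0.20 over hepatocytes. Serpinh1, the collagen chaperone HSP47, was at 102 ± 42 CPM in stellate and 95.9 CPM in endothelial nuclei, and was higher in stellate than in hepatocyte nuclei by 3.51 ± 0.29.

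Several handling genes were lower in stellate cells than in hepatocytes or did not pass the threshold. The hepatocyte list made 12.2% to 14.3% of the UMIs of stellate-gated TLH cells and 5.76% to 11.9% of those of stellate nuclei. The part of hepatocyte RNA in the stellate values below was not tested. P4hb, a subunit of the prolyl hydroxylase that also serves protein folding in general, was at 390 ± 94 CPM in stellate and 560 CPM in hepatocyte TLH cells (log2 difference -0.62 ± 0.08, past the threshold), and Fn1, fibronectin, was likewise lower in stellate cells (-0.51 ± 0.06) and nuclei (-0.88 ± 0.17). Bmp1, which trims the end of procollagen, was at 233 ± 62 CPM in stellate nuclei and did not pass the threshold against hepatocytes (-0.07 ± 0.18). Ppib, a prolyl isomerase, was at 216 ± 17 CPM in stellate TLH cells (0.15 ± 0.09 against hepatocytes, not past the threshold). Mia2, of the export machinery for bulky cargo, was at 136 ± 28 CPM in stellate nuclei (-0.31 ± 0.20, not past the threshold). Among collagen receptors, Itga1 was at 113 ± 62 CPM in stellate and 263 CPM in endothelial nuclei, lower in the former (log2 difference -1.26 ± 0.22). Itgb1 was at 194 ± 85 and 190 CPM and did not differ past the threshold between them.

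The strains were compared within each gated class, 2 LEW against 2 DA rats, of which a two-sided exact permutation test could not give a p under 0.333, so calls rest on the spread shared across genes in edgeR. In stellate TLH cells 2 of 5 tested members were lower in LEW and none higher, where 2.09% of all genes tested were called lower and 0.858% higher. These were Col3a1 (395 against 919 CPM, log2 difference -1.18 ± 0.21, edgeR adjusted p = 0.0128) and Col4a1 (42.5 against 135 CPM, -1.62 ± 0.30, edgeR adjusted p = 0.0145). Both LEW values lay below both DA values. Neither call outlived a stricter gate or the UMI limit that the methods of the study state for the LEW rats. Here 2000 UMIs were required of LEW cells, which left 5457 and 3844 cells, against 12124 and 7857 at 1500 UMIs. The cell numbers per sample in those methods equal the former. At 1500 UMIs Col3a1 was at 671 and 564 CPM in LEW (log2 difference -0.52 ± 0.17, edgeR adjusted p = 0.136) and Col4a1 at 89.5 and 69.9 CPM (-0.71 ± 0.22, edgeR adjusted p = 0.105). With 4 markers Col3a1 differed by -0.55 ± 0.17 (edgeR adjusted p = 0.181) and Col4a1 by -0.94 ± 0.31 (edgeR adjusted p = 0.208). Both LEW values stayed below both DA values with 4 markers, at 956 and 808 against 1488 and 1179 CPM for Col3a1 and 127 and 74.2 against 190 and 214 CPM for Col4a1. With 5 markers Col3a1 was at 1648 and 1311 CPM in DA and 1303 and 1331 CPM in LEW cells, which overlap, and Col4a1 at 227 and 250 CPM in DA and 161 and 78.3 CPM in LEW cells, which do not.

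The number of markers moved with the strain. Cells with exactly 3 stellate markers made 29.1% and 36.1% of the stellate gate in the DA and 56.8% and 68.2% in the LEW TLH rats, and 16.7% and 24.6% against 42.2% and 40.8% in nuclei. Cells just inside the gate held little Col3a1, 238, 105, 105 and 92.6 CPM in DA1, DA2, LEW1 and LEW2 TLH cells. At equal marker number both LEW values of TLH cells lay below both DA values in the middle of the range. They were 907, 581, 59.4 and 120 CPM at 4 markers (3 and 7 UMIs in LEW) and 1319, 1087, 411 and 810 CPM at 5 to 6 markers. Cells with 7 or more markers held 2031, 1423, 2026 and 1818 CPM, and the strains overlapped there. The sum of 14 stellate markers was 5361 and 5039 CPM in the DA and 2709 and 2253 CPM in the LEW gate, and Col3a1 per 1000 UMIs of these markers was 202 and 150 against 172 and 144. In stellate nuclei of DA1, DA2, LEW1 and LEW2, Col3a1 stood at 217, 147, 144 and 118 CPM at 4 markers (6, 3, 5 and 2 UMIs). At 5 to 6 markers the nuclei held 803, 683, 3337 and 796 CPM. At 7 or more they held 2025, 5297, 2185 and 2375 CPM, and the strains overlapped in both. The part of the difference in gate makeup in the strain result was not tested further.

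**Figure D2:**
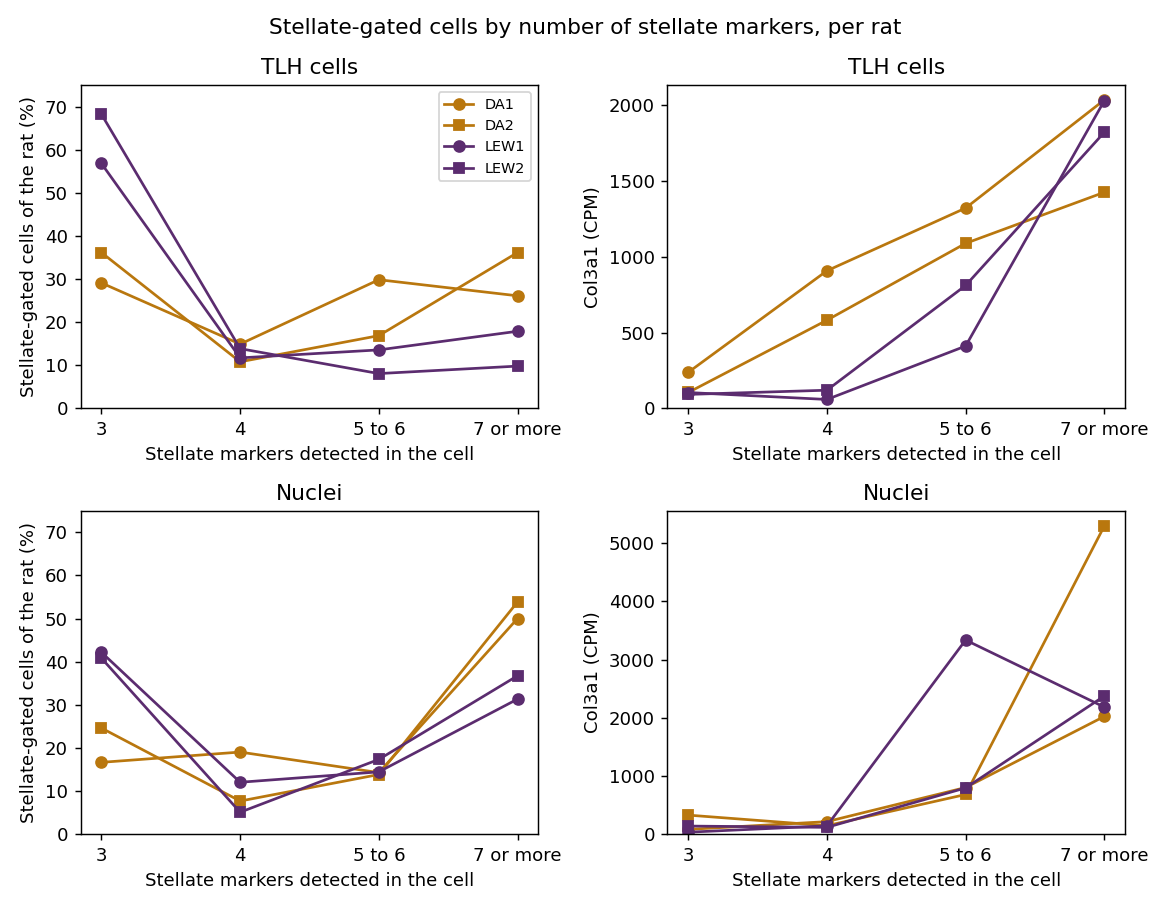
Stellate-gated TLH cells (top) and nuclei (bottom) by the number of stellate markers detected: the share of the gated cells of each rat in percent (left) and the Col3a1 level in CPM (right), with 1 line a rat, DA in ochre and LEW in purple. LEW lines start higher on the left, at 56.8% and 68.2% in TLH cells. On the right the LEW TLH lines lie below the DA lines at 4 markers and at 5 to 6 markers (411 and 810 against 1319 and 1087 CPM), and all TLH lines lie between 1423 and 2031 CPM at 7 or more.

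Col1a1 went the other way in stellate TLH cells, at 23.4 and 33.7 CPM in LEW and 11.8 and 5.20 CPM in DA (1.91 ± 0.56 on the log2 scale, edgeR adjusted p = 0.107), and passed the threshold with 4 markers (3.16 ± 0.63, edgeR adjusted p = 0.0281) and with 5 (4.22, edgeR adjusted p = 0.0305). In the LEW rats 9 of 10 and 12 of 14 of these UMIs lay in a single cell. The difference therefore rests on 2 cells.

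**Figure D3:**
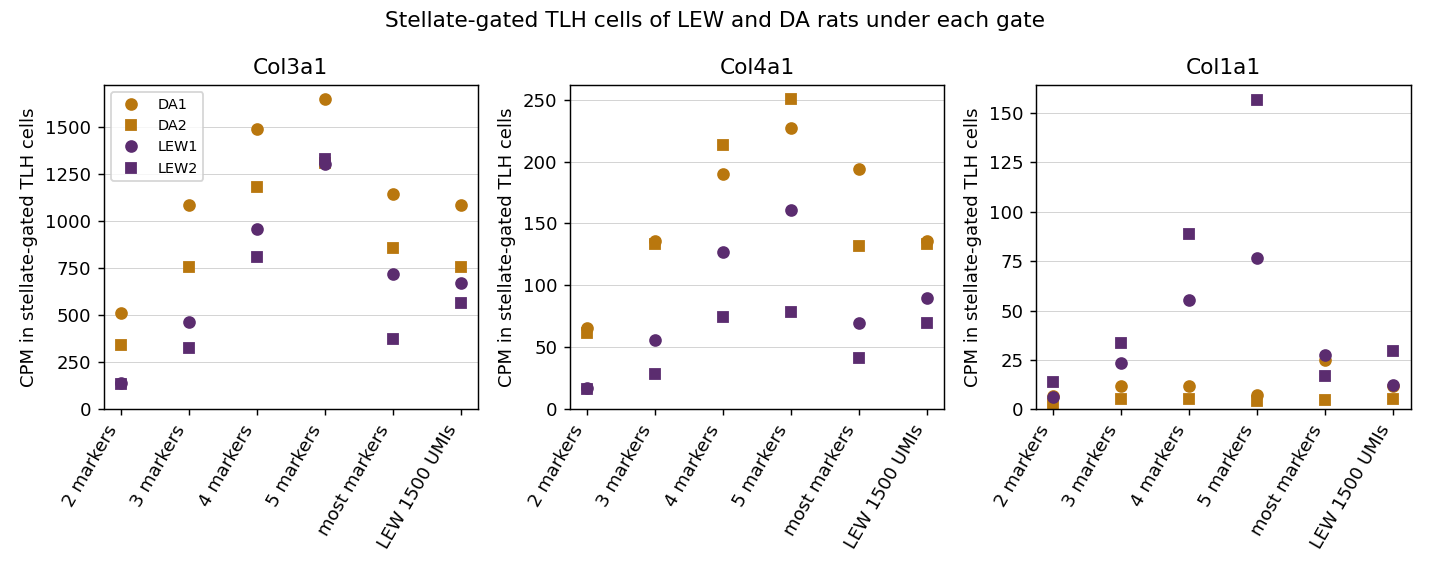
Col3a1, Col4a1 and Col1a1 in stellate-gated TLH cells in CPM under each gate, with 1 point a rat, DA in ochre and LEW in purple. LEW points for Col3a1 and Col4a1 lie below DA points at 3 and 4 markers. At 5 markers those of Col4a1 still do (161 and 78.3 against 227 and 250 CPM), and the Col3a1 values of 3 rats lie between 1303 and 1331 CPM.

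In stellate nuclei 1 of 7 tested members was lower in LEW and none higher (1.57% and 0.533% of all genes). This was Col6a2, at 112 against 335 CPM (-1.5 ± 0.41, edgeR adjusted p = 0.0455), and the call was lost when any single rat was left out. Of the 7 members, 6 had an unadjusted p under 0.05 and were lower in LEW, as did 7.55% of all genes tested, among them Col3a1 (797 against 1519 CPM, -0.85 ± 0.40, edgeR adjusted p = 0.339), Col14a1 (-1.27 ± 0.46) and Col5a2 (-2.37 ± 0.73). Col5a1, Col5a2 and Col14a1 were tested owing to their level in DA, so their part in these counts is no independent support. Stellate nuclei differ in marker number between the strains as the cells do.

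Outside the stellate class the strain differences concerned Col18a1. In endothelial TLH cells 1 of 5 tested members was lower in LEW and none higher (1.88% and 1.35% of all genes), Col18a1 at 131 and 146 CPM against 228 and 260 CPM (-0.93 ± 0.20, edgeR adjusted p = 0.0176), a call lost without LEW1. In Kupffer TLH cells 1 of 3 was lower and none higher (1.36% and 1.5% of all genes), again Col18a1 (-0.80 ± 0.18, edgeR adjusted p = 0.0416), lost without DA2, LEW1 or LEW2. In hepatocyte TLH cells none of 6 was called lower or higher by edgeR (1.86% and 1.77% of all genes) or by DESeq2, and 1 had an unadjusted p under 0.05, Col18a1 at 265 and 240 CPM against 383 and 372 CPM (-0.54 ± 0.13, edgeR adjusted p = 0.0553). Both LEW values lay below both DA values in each of these classes, and in lymphocytes, the background class, they were 75.1 and 130 against 205 and 205 CPM. In nuclei Col18a1 differed by -0.24 ± 0.45 in hepatocytes and 0.07 ± 0.48 in Kupffer nuclei. No member was called there in endothelial (0 of 5, 3 lower at an unadjusted p under 0.05 as were 5.53% of all genes, with 0.534% of all genes called lower and 0.485% higher), hepatocyte (0 of 4, 0 at an unadjusted p under 0.05, with 0.811% and 0.564%) or Kupffer nuclei (0 of 1, 0 at an unadjusted p under 0.05, with 0.998% and 0.791%) by edgeR, nor by DESeq2. Col4a3 was tested in endothelial nuclei owing to its level in DA (51.8 and 76.6 against 16.6 and 40.7 CPM in LEW).

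Handling genes that differed between the strains were given whatever their class. In stellate TLH cells 5 of 17 tested were lower in LEW and none higher, where 2.09% of all genes were called lower and 0.858% higher. The share of cells with exactly 3 markers (56.8% and 68.2% in LEW, 29.1% and 36.1% in DA) and the lower stellate marker sum of the LEW gate move with them, and their part was not tested. The genes were Bgn (286 against 878 CPM, -1.57 ± 0.18), Sparc (220 against 558 CPM, -1.31 ± 0.21), Serpinh1 (28.3 against 80.3 CPM, -1.44 ± 0.33), P3h3, a prolyl hydroxylase relative (1.17 against 37.0 CPM, 1 against 54 UMIs), and Adamts2, which cuts the front end of procollagen (4.74 against 38.8 CPM, 4 against 54 UMIs). In stellate nuclei Adamts2 was at 13.6 CPM in LEW and 83.2 CPM in DA (7 against 23 UMIs). These last 2 genes were tested owing to their level in DA, so their calls are no independent support. Serpinh1 was lower in LEW hepatocytes in TLH cells (3.22 against 11.2 CPM, -1.69 ± 0.32) and nuclei (1.92 against 16.6 CPM, -3.04 ± 0.43). The metalloproteinase inhibitor Timp2 was higher in LEW Kupffer TLH cells (257 against 54.4 CPM, 2.23 ± 0.20) and Timp3 lower in LEW endothelial nuclei (37.2 against 162 CPM, -2.08 ± 0.45). Timp3 there and Serpinh1 in hepatocyte nuclei were tested owing to their level in DA, so these calls are no independent support either. The crosslinking enzyme gene Lox was at 10.8 CPM in LEW and 0.371 CPM in DA hepatocyte nuclei (102 against 3 UMIs), and was tested owing to its level in LEW.

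Nuclei and TLH cells were compared within each class, 4 rats each. Scaling by the trimmed mean of M-values (TMM) moves this comparison, since the median gene stood 0.71 higher in nuclei on the log2 CPM scale in stellate, 0.70 in endothelial, 0.74 in Kupffer and 0.85 in hepatocyte classes, and the fold changes below are relative to it. In stellate nuclei 4 of 6 tested members were higher and none lower, where 35.9% of all genes were called higher and 33.2% lower: Col5a1 (3.19 ± 0.46), Col14a1 (2.46 ± 0.37), Col6a2 (1.65 ± 0.28) and Col18a1 (0.73 ± 0.21). Col5a1 and Col14a1, with 12 and 25 UMIs in stellate TLH cells, were tested owing to their level in nuclei, so their calls are no independent support. The Col18a1 call was lost without LEW1 of the TLH rats or without the filter, and 3 to 5 members were called with 1 rat left out. Col3a1 (0.28 ± 0.21, edgeR adjusted p = 0.249) and Col4a1 (0.40 ± 0.23, edgeR adjusted p = 0.131) did not pass the threshold, although their CPM were higher in nuclei (1158 against 657, and 166 against 88.6). In endothelial nuclei 4 of 4 were higher (38.8% of all genes higher and 36.7% lower): Col4a4 (2.26 ± 0.27, edgeR adjusted p = 3.93e-07), Col13a1 (1.14 ± 0.28), Col18a1 (0.77 ± 0.24) and Col4a1 (0.66 ± 0.29, edgeR adjusted p = 0.0433). The Col4a1 call was kept in 4 of 17 alternatives. The Col18a1 call was lost without the filter, without TLH rats LEW1 or LEW2 or without DA1 of the nuclei. Col13a1, at 24.8 to 29.9 CPM in endothelial TLH cells, was tested owing to its level in nuclei, so its call is no independent support. That call was also lost with gates by most markers.

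In hepatocyte nuclei 4 of 6 members were lower and 1 higher (33.3% and 36.2% of all genes). Those lower were the chains of the other classes: Col3a1 (8.2, 14, 13.2 and 19.9 CPM against 35.0, 27.7, 20.9 and 38.4 CPM, -1.95 ± 0.23, edgeR adjusted p = 6.38e-06), Col1a1 (-2.22 ± 0.41), Col6a2 (-1.65 ± 0.39) and Col4a1 (-1.56 ± 0.38). Every nuclei value of Col3a1 lay below every TLH value. Col1a1 and Col6a2 held 21 and 28 UMIs in hepatocyte nuclei, against 62 and 56 in hepatocyte TLH cells. Both were tested owing to their level in TLH cells, so their calls are no independent support. Col18a1 was higher in nuclei (790 against 315 CPM, 0.57 ± 0.20, edgeR adjusted p = 0.0233), a call lost without any 1 of the TLH rats or without DA1 of the nuclei. In Kupffer nuclei 2 members could be tested (31.3% of all genes called lower and 33.3% higher), of which Col3a1 was lower (18.5 against 35.5 CPM, -1.64 ± 0.46) and Col18a1 higher (471 against 180 CPM, 0.67 ± 0.24), the latter call lost without DA1, LEW1 or LEW2 of the nuclei. Col3a1 had 11 UMIs in Kupffer nuclei against 189 in TLH cells, and was tested owing to its level in TLH cells. Its call was kept in the 11 alternatives that tested it, where 17 tested Col18a1. Mean Col3a1 in nuclei and TLH cells was 41.6 and 42.5 CPM with gates by most markers, and 8.50 and 30.3 CPM with 5 markers.

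**Figure D4:**
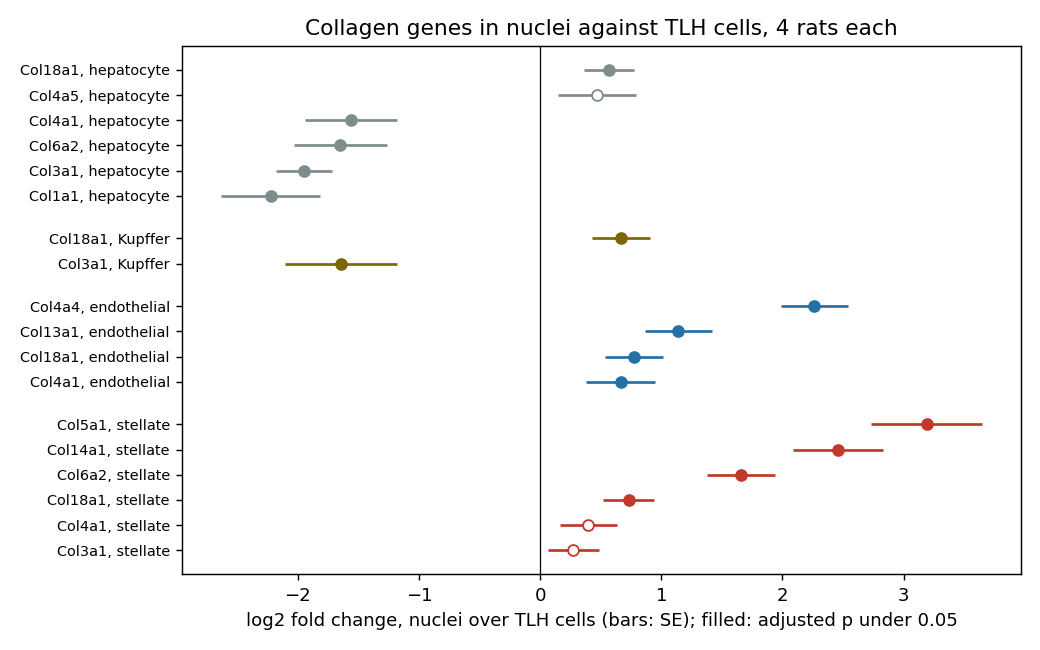
Log2 fold change of nuclei over TLH cells (x axis, relative to the TMM-scaled median gene) for each member tested in each gated class, 4 rats each, with bars for the standard error derived from the edgeR F statistic and filled points past an adjusted p of 0.05. Stellate and endothelial members lie at or right of 0, up to 3.19 for Col5a1, and members other than Col18a1 and Col4a5 lie left of 0 in hepatocytes and Kupffer cells.

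On the Wistar sections 2260 and 2196 spots held at least 5000 UMIs, and 5 members had a UMI in at least 5% of the spots of both. A spot covers mostly hepatocytes and pieces of the sinusoid, and the cell behind a UMI is not seen. Col18a1 was found in 98.1% and 98% of spots, Col3a1 in 65.1% and 68.3%, Col4a1 in 30.2% and 32.7%, Col6a2 in 15.7% and 16.9% and Col4a4 in 6.15% and 7.42%. No UMI fell on 15 of the 42 members on either section. Spots were ranked by a score of periportal minus pericentral genes and divided into 3 equal zones, with counting intervals only, since there is 1 section a rat. From the pericentral over the middle to the periportal zone, Col3a1 stood at 106, 78.6 and 70.7 CPM on the first and 112, 84.3 and 76.9 CPM on the second section. The ratio of the outer zones was 1.5 (95% counting interval 1.37 to 1.64) and 1.46 (1.34 to 1.59). Col6a2 stood at 13.1, 12.3 and 10.4 and at 14.8, 11.4 and 10.7 CPM, with overlapping intervals of neighbouring zones. Col18a1 was nearly level, with ratios of 1.05 (1.00 to 1.09) and 1.06 (1.02 to 1.11). Col4a1 (22.8, 25 and 25.2, then 26.7, 23.8 and 29.4 CPM) and Col4a4 (4.15, 4.27 and 4.00, then 5.80, 4.71 and 4.39 CPM) did not take the order of Col3a1 on both sections, or had intervals that overlap.

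**Figure D5:**
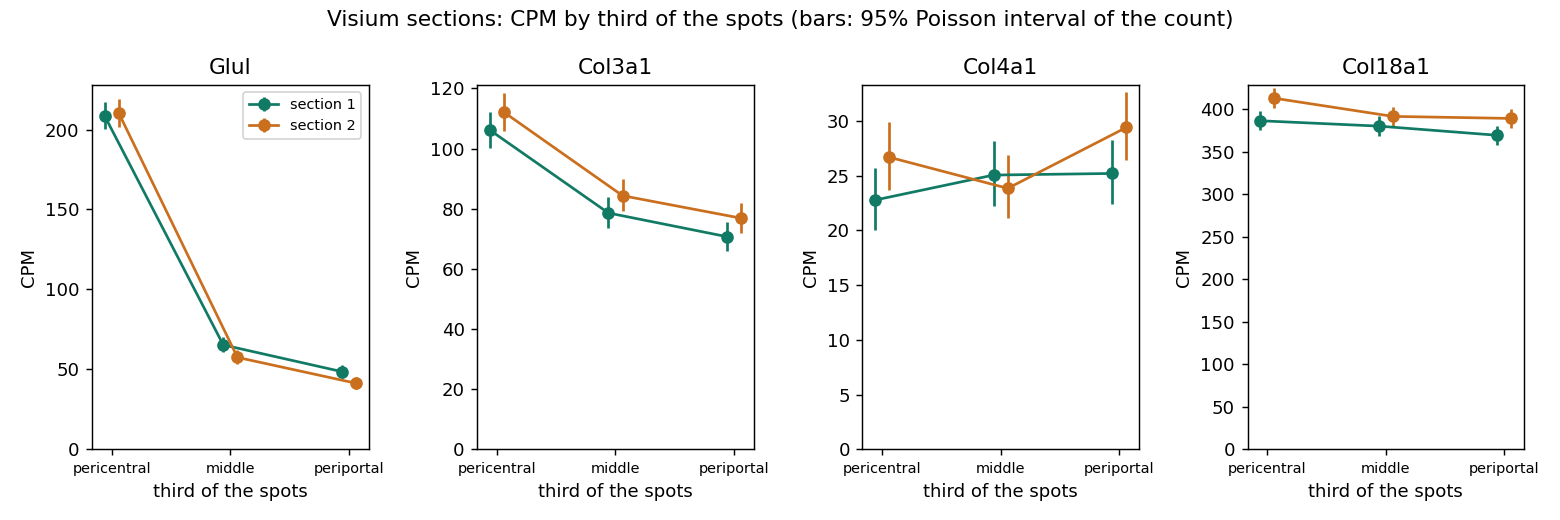
Level in CPM in the pericentral, middle and periportal zone of the spots (3 equal parts) of each Wistar section for Glul, a pericentral gene of the score, and for Col3a1, Col4a1 and Col18a1, with bars for the 95% Poisson interval of the count. Col3a1 steps down from 106 to 70.7 and from 112 to 76.9 CPM, and Col18a1 stays between 369 and 413 CPM.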

How the data were processed

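The authors made the count files with Cell Ranger 3.1.0 (cells and nuclei) and Space Ranger 1.1.0 (sections) on a custom reference of the rat genome build 6.0; the deposited values are raw UMI counts per gene and barcode, before the filters of the study. Barcodes were kept above 1500 (DA1) or 2000 UMIs in TLH cells (the study states 1500 for the LEW rats, and 2000 was used because it leaves the study's number of cells per sample) and 1000 in nuclei and immune-enriched cells, with at most 20 to 40, 10 and 50 percent mitochondrial UMIs. The study predicted doublets without removing them, and no caller was run. Hepatocytes needed 10 markers of their list. UMIs were summed per rat and class (at least 10 cells), and tested over all genes with edgeR 4.0.16 (quasi-likelihood, TMM, filterByExpr, robust) and Benjamini-Hochberg adjustment at 0.05, with the rat as a block between classes, none between strains, and strain as a covariate between nuclei and cells. P-values rest on the spread over rats, moderated in edgeR by the spread shared across genes. The SE of a log2 difference is its absolute value divided by the square root of the edgeR F statistic, so it is moderated likewise. With so few rats, very small p-values lean on that shared spread and do not measure the spread of the rats alone. Counting intervals cover counting error only. The chemistry named for the immune-enriched libraries differs between sources.

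The members, the gene lists and the gates were chosen with earlier results of these data known. Members were given values where their mean reached 20 CPM in a class of cells or nuclei, where they differed between strains, or where 5 percent of spots on both sections held a UMI. Handling genes were given values from 100 CPM in stellate cells or where they differed between strains. Alternatives were other gates, DESeq2 1.42.0, its size factors, no filter, the replicate block, an LEW limit of 1500 UMIs and leaving out each rat. Chosen after seeing the data were the gate of 5 markers, gates by most markers, crossed replicate numbers and a fit with a strain by assay interaction. One of the stellate markers and the alternative built on it are not reported here. Pipelines were tested on simulated data.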

Additional observations from a re-analysis of the deposited data

Results flagged for a closer look

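A pair of members moved in opposite directions between the strains in TLH cells and in nuclei, with both LEW rats on one side of both DA rats in each assay. Col1a1 in the stellate class was higher in LEW by 20.0 CPM as a mean in TLH cells, and LEW minus DA was -104.5 CPM in nuclei, where DA2 alone stood at 219 CPM. In one fit with a strain by assay interaction, chosen after seeing the data, the interaction was -5.09 ± 1.21 on the log2 scale (edgeR adjusted p = 0.447 over 5719 genes), not past the threshold. Its UMIs lie in a few cells, as described above.

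Col4a1 in the endothelial class was higher in LEW by 11.4 CPM in TLH cells, and LEW minus DA was -141.9 CPM in nuclei. The interaction was -1.23 ± 0.47 (edgeR adjusted p = 0.346 over 4783 genes), not past the threshold.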

How the results depend on the processing

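For the members and comparisons called, 62 in all, 818 alternative values were computed, of which 744 kept direction and call, 73 kept the direction and lost the call, and 1 reversed: Col3a1, endothelial against hepatocyte nuclei, was -0.42 to 1.69 on the log2 scale with 1 rat left out, at -0.42 without DA2, and its call was also lost without LEW2, without the rat block or with DESeq2. Alternatives in which a member was no longer tested or had no adjusted p are not among these values and were not counted as lost. Col18a1, stellate against Kupffer TLH cells, lost its call without DA1 or LEW2, without the rat block, with DESeq2 or without the filter. The cause was not tested. Values below are numbers of members called. Without the filter on low counts they were 9, 11, 8 and 7 in TLH cells for stellate against endothelial, stellate against hepatocyte, stellate against Kupffer and endothelial against hepatocyte, 11 and 10 in nuclei for stellate against endothelial and Kupffer, 1 for LEW against DA in hepatocyte TLH cells and 8 for hepatocyte nuclei against TLH cells, where more genes are tested by construction. With gates by most markers they were 7 and 5 for stellate against Kupffer in cells and nuclei, 1 and 2 for the strains in stellate cells and nuclei, and 2 for endothelial nuclei against TLH cells. Between the strains, stellate TLH cells gave 1 with gates of 4 or 5 markers and 0 with the LEW limit of 1500 UMIs. Endothelial TLH cells gave 0 with DESeq2 or 5 markers, and Kupffer TLH cells 0 with DESeq2, 2 or 4 markers or that limit. Stellate nuclei gave 0 with 4 or 5 markers, with DESeq2 or its size factors. Stellate against Kupffer nuclei gave 1 with 2 markers, and Kupffer nuclei against TLH cells 1 with 2, 4 or 5 markers.

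Leaving out 1 rat gave 0 to 2 for the strains in endothelial TLH cells (0 without LEW1, 2 without LEW2) and in endothelial nuclei (2 without DA1), 0 to 1 in Kupffer TLH cells (0 without DA2, LEW1 or LEW2) and stellate nuclei (0 without DA2, and Col1a1 in place of Col6a2 without DA1, LEW1 or LEW2), 2 to 4 for endothelial nuclei against TLH cells (2 without TLH rats LEW1 or LEW2 or nuclei rat DA1), 3 to 5 for hepatocyte (3 without TLH rats DA1 or DA2) and 1 to 2 for Kupffer (1 without any TLH rat or nuclei rats DA1 or LEW2).

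Samples of the same replicate number did not deviate together, with correlations of -0.21 to 0.15 over genes, so the numbers pair nothing. With the replicate block the strains gave 1 member in stellate, 0 in endothelial and 0 in Kupffer TLH cells. Crossing the numbers, tried after seeing the data, gave 1 in hepatocyte TLH cells and 5 for hepatocyte nuclei against TLH cells.

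The mean Col3a1 level of stellate TLH cells was 281, 1108 and 1398 CPM with gates of 2, 4 and 5 markers and 1204 CPM with gates on cells thinned to 1000 UMIs, and that of stellate nuclei 456, 1813, 2319 and 2093 CPM. Col4a1 in endothelial TLH cells was 61.7, 86.7 and 91.7 CPM with 2, 4 and 5 markers. The Col3a1 ratio on the sections was 1.76 and 1.62 between the outer of 5 equal zones. Depth limits the members with few UMIs, 28 of which had a mean under 20 CPM in every class.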

Other observations

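Much of the Col3a1 RNA lay in barcodes that no gate took. They held 57.6% of the Col3a1 UMIs in TLH cells, 51.0% in nuclei and 97.9% in immune-enriched cells. In the immune-enriched LEW library 223 ungated barcodes with at least 3 stellate markers held 4332 of 4434 Col3a1 UMIs, and 205 of them carried at least 2 endothelial markers. Their median was 6 stellate and 13 endothelial markers at 9049 UMIs. In the DA library 83 such barcodes held 1479 of 1646. Whether they are doublets or cells of another kind was not tested. In the TLH libraries such barcodes held 31.4% to 51.4% of the Col3a1 UMIs of the library.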
